A study of Danio rerio with 18 samples.

Results

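The enhancers compared here are all regions with enriched H3K27 acetylation (H3K27ac) in the brain and testis lists of adult male zebrafish aged 10 months. They were taken whole from the super-enhancer and typical-enhancer list of each tissue and number 23250 of the 66306 regions of the series, 13235 in brain and 10015 in testis. The fish were wild type of the AB strain. Each tissue had 2 replicate libraries of immunoprecipitated chromatin and 2 of input DNA. A replicate pooled 12 brains or 8 testes, so differences between single fish are not visible. Chromatin of both tissues was sheared to 175 bp and precipitated with the same antibody lot, so age, fragment size and preparation do not separate them. Each tissue is represented by 1 list per class without values per replicate, and every comparison is therefore a description of these lists with no p-value. Whole organs were used, so a mark carried by fewer cells and a weaker mark in each cell cannot be told apart. Gene identities, and with them marker genes that would check the tissue labels, were not analysed here.

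Acetylation of lysine 27 on histone H3 is placed by the acetyltransferases p300 and CBP at active enhancers and promoters. A typical enhancer is a region of such marked chromatin, and a super-enhancer is a long cluster of neighbouring marked loci that together carry much signal, often found in mammals near genes of cell identity. The brain holds many kinds of neurons and glia, and the testis holds germ cells at successive stages with Sertoli and Leydig cells. Zebrafish sperm, unlike those of mammals, keep their DNA in nucleosomes rather than on protamines.

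The brain list was larger, and its regions were built from more pieces. Brain regions covered 171 Mb, or 12.6% of the summed chromosome length, and testis regions 60.5 Mb, or 4.46%. The 664 brain super-enhancers were 5.02% of the brain regions and held 29.9% of their base pairs. The 581 testis super-enhancers were 5.80% of the testis regions and held 20.0% of their base pairs.

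Typical enhancers of both tissues had the same median length, 3.40 kb, and parted above it. The equality did not hold over regions with their own signal, defined below, where the medians were 8.20 kb in brain and 4.2 kb in testis. The upper quartile was 12.4 kb in brain and 5.20 kb in testis, and the 95th percentile was 36.6 kb and 17.0 kb. Below the median the order turned, with a lower quartile of 1.80 kb in brain and 2.20 kb in testis. The longest typical enhancer measured 160 kb in brain and 67.6 kb in testis. Super-enhancers had quartiles of 45.4, 67.0 and 97.2 kb in brain and of 11, 17.2 and 27 kb in testis. Even the upper quartile of testis super-enhancers lay below the lower quartile of those of brain.

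**Figure D1:**
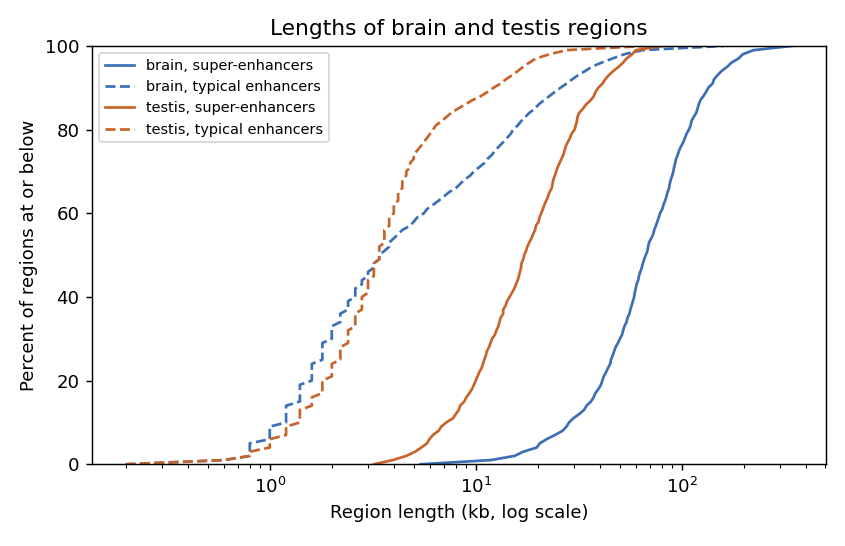
Cumulative percent of regions (y axis) by length in kb on a log axis (x axis), with solid lines for super-enhancers and dashed lines for typical enhancers of each tissue. The dashed lines cross at the shared median of 3.40 kb, while the solid lines stay apart, with medians of 17.2 kb in testis and 67.0 kb in brain.

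The region names state how many marked loci were joined into a region. In brain, 59.2% of regions were 1 locus, 17.5% joined 2 and 3.13% (414 regions) joined 10 or more. In testis, 79.7% were 1 locus, 14.7% joined 2, and no region joined more than 9. The brain maximum was 54 loci.

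Regions of 1 locus were shorter in brain than in testis, and regions of 2 or more loci as a whole were longer in brain. The median 1-locus region was 2.0 kb in brain (n = 7840) and 3.0 kb in testis (n = 7978). Regions of 2 or more loci had medians of 17.8 kb in brain and 14.8 kb in testis. At equal numbers of loci the order was that of 1-locus regions. Regions of 2 loci had medians of 10.4 kb in brain and 12.4 kb in testis, those of 3 loci 17.8 and 22.8 kb, and those of 4 to 5 loci 28.2 and 34.5 kb. In each of these classes the testis regions were the longer. The call as a super-enhancer was reached with fewer loci in testis. Among regions of 3 loci, 39.4% were super-enhancers in testis and 2.20% in brain, and for 4 to 5 loci the values were 62.2% and 8.95%. In brain the share first passed those values among regions of 10 or more loci, at 73.2%. Names without a count of loci, which mark loci listed unjoined, were few, 241 in brain and 87 in testis.

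Names were not unique, which limits the use of the signal. In brain 84.0% and in testis 94.2% of typical enhancers shared their name with other regions, up to 41 and 40 regions to a name. One signal value is repeated over all regions of a name, long or short. It divided evenly by the length, at the precision of the file, in brain for 95% of the super-enhancers and 38.7% of the typical ones, and in testis for 72.6% and 26.5%. These regions are said to have their own signal. For regions of 1 locus the name also holds a number that tracks the signal closely. The ratio of signal to this number had a median of 3.87 in brain (coefficient of variation 4.33%, n = 2476 with their own signal) and 4.05 in testis (7.74%, n = 1887). In regions of 2 or more loci the coefficients were 130% and 71.1%. Signal per base pair is therefore given below for 1-locus regions, and for joined regions only where they have their own signal. Most 1-locus regions do not have their own signal, and for them this ratio is not given here. Their signal per base pair divides a repeated value by the length of the region.

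Neither list contained the other. Brain and testis regions had 22 Mb in common, which was 12.9% of the brain base pairs and 36.4% of the testis base pairs. By region, 4324 brain regions (32.7%) overlapped a testis region by at least 50% of the shorter of them, and 4618 testis regions (46.1%) overlapped a brain region. These regions are called shared, and the others private. The common base pairs were 2.89 times the product of the shares of the chromosomes that each list covered, a description with no test. Over the 25 chromosomes this ratio ran from 2.06 on chromosome 18 to 4.12 on chromosome 4. It uses the whole chromosome length, and on chromosome 4 the first 30 Mb held 85.7% of brain and 86.9% of testis regions. The part of this in its ratio was not tested. On chromosome 4, 33.9% of brain and 49.4% of testis regions were shared, against medians of 34.0% and 46.0% over chromosomes.

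Super-enhancers of either tissue mostly had a counterpart in the other, which in a minority of cases was a super-enhancer. Of 664 brain super-enhancers, 77 (11.6%, 95% interval 9.26 to 14.3) met a testis super-enhancer, 366 (55.1%, 51.2 to 58.9) met typical enhancers and 221 (33.3%, 29.7 to 37.0) were private. Of 581 testis super-enhancers, 79 (13.6%, 10.9 to 16.7) met a brain super-enhancer, 303 (52.2%, 48.0 to 56.3) met typical enhancers and 199 (34.3%, 30.4 to 38.3) were private. For comparison, 3.10% of all brain regions met a testis super-enhancer and 6.52% of all testis regions met a brain one. Super-enhancers were 5.02% of brain and 5.80% of testis regions. Typical enhancers met a super-enhancer of the other tissue less often, in 2.65% of cases in brain and 6.08% in testis. They were also shorter, and the part of length in this was not tested. The proportions of super-enhancers in the 2 directions lay within each other's intervals. Meetings of 2 super-enhancers are the same overlaps counted from each end, so their near equality is not separate information. All these proportions rest on the overlap rule. With at least 50% of both regions required, 95.5% of brain and 79.3% of testis super-enhancers were private. Restricted to regions with their own signal, which removes most typical enhancers of each list, 71.3% and 55.2% were private.

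Typical enhancers were private more often under this rule. With at least 50% of both regions required the order turned in brain, where 95.5% of super-enhancers were private and 12.1% of typical enhancers were shared. Under the rule used here, in brain 8690 of 12571 (69.1%, 68.3 to 69.9) were private, 3548 (28.2%) met a testis typical enhancer and 333 (2.65%) a testis super-enhancer. In testis 5198 of 9434 (55.1%, 54.1 to 56.1) were private, 3662 (38.8%) met a brain typical enhancer and 574 (6.08%) a brain super-enhancer. Pairs of typical enhancers held 61.9% of the base pairs in matched pairs, and pairs of super-enhancers 7.44%. The classes differ in size, and the part of this in these values was not tested. Typical enhancers held 70.1% of all brain and 80.0% of all testis base pairs, and super-enhancers 29.9% and 20.0%.

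**Figure D2:**
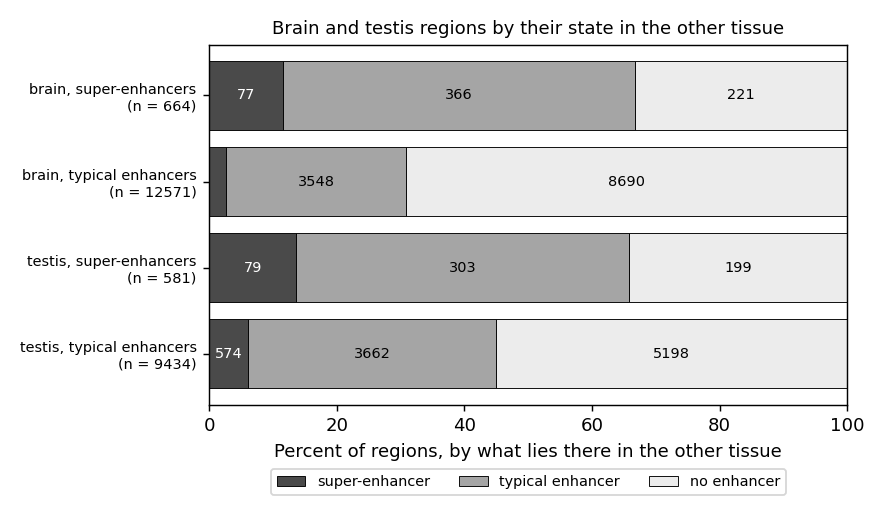
Percent of regions (x axis) in each of the 4 lists (bars) by what lies at the same place in the other tissue, with the number of regions printed in each segment. The unlabelled segment of brain typical enhancers holds 333 regions, and the private segments are widest for typical enhancers, 8690 in brain and 5198 in testis.

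Longer brain regions were shared more often, and the classes still differed between 20 and 50 kb in brain. The rule counts a long region as shared when a region of the other tissue lies inside it. Longer regions have more room for this, and its part in the rise was not tested. From under 2 kb to 50 kb and over, the shared percentage of brain typical enhancers went from 23.6% to 59.3%, with a small step back from 30.7% at 2 to 5 kb to 29.0% at 5 to 10 kb. Between 20 and 50 kb it was 45.1% (42.5 to 47.7, n = 1497) for typical enhancers and 63.9% (56.2 to 71.1, n = 169) for super-enhancers of brain. At 50 kb and over the values were 59.3% (53.3 to 65.1) and 68.6% (64.2 to 72.8), with overlapping intervals.

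In testis the classes came together with length. Between 10 and 20 kb 51.4% (48.1 to 54.7) of typical enhancers and 62.3% (55.5 to 68.8) of super-enhancers were shared, and between 20 and 50 kb 66.5% (60.5 to 72.2) and 67.3% (60.6 to 73.5). All 28 testis super-enhancers and all 7 typical enhancers of 50 kb and over were shared. The shortest testis typical enhancers were also often shared, 51.5% under 2 kb against 39.6% between 2 and 5 kb. In brain the order was the reverse, 23.6% under 2 kb against 30.7% between 2 and 5 kb. The rule takes a region that lies wholly inside a longer one as shared, and its part in these values was not tested. The number of loci ordered the regions likewise, from 28.0% shared at 1 locus to 64.5% at 10 or more in brain, and from 42.8% at 1 to 92.9% at 6 to 9 in testis. Regions of more loci were also longer, and the part of length in this was not tested.

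**Figure D3:**
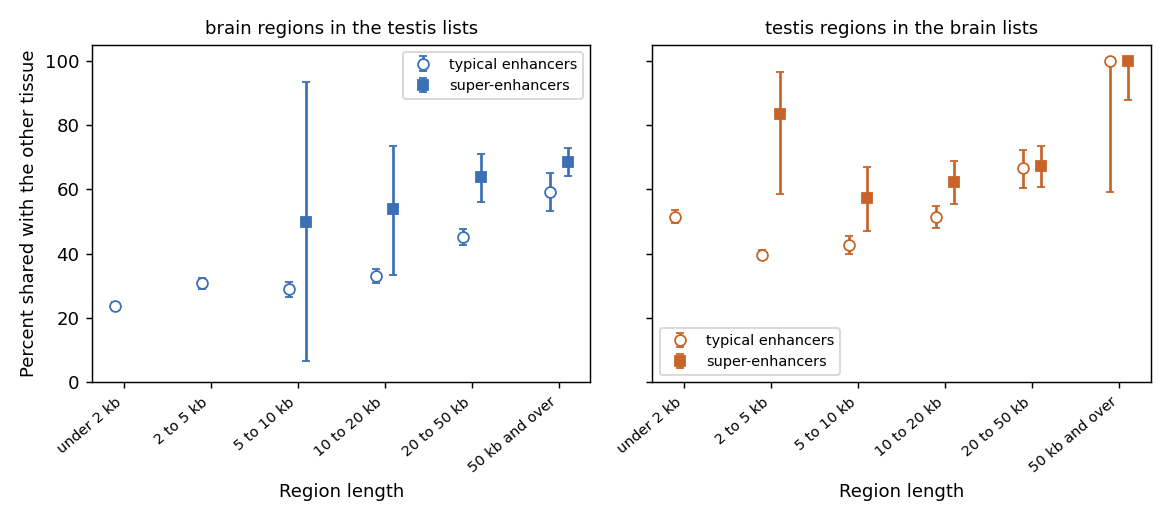
Percent of regions shared with the other tissue (y axis) in 6 classes of length (x axis), with open circles for typical enhancers and filled squares for super-enhancers. Error bars are exact 95% intervals over regions, and the squares of brain stand above its circles at 20 to 50 kb (63.9% and 45.1%), while those of testis meet there (67.3% and 66.5%).

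In matched pairs the brain region was the longer more often than the testis region. The rule gave 4669 pairs, of which 3957 joined 1 brain region and 1 testis region found in no other pair. In these the brain region was the longer in 59.5%, the testis region in 34.6%, and the lengths were equal in 5.89%. The median ratio of brain to testis length was 1.33, with quartiles of 0.726 and 4.93. Over all pairs the testis region lay wholly inside the brain region in 54.0%, and the brain region wholly inside the testis region in 26.6%.

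Little of a shared brain super-enhancer was marked in testis. The median covered part was 10.4% for the 443 shared brain super-enhancers, and 341 of them (77.0%) were covered by less than 25%. For shared typical enhancers of brain it was 70.3%. In the other direction the medians were 66.4% for shared testis super-enhancers and 100% for typical ones. The lengths limit these parts. Pairs of a brain super-enhancer and a testis typical enhancer had medians of 84.4 and 3.80 kb, and pairs of super-enhancers 64.6 and 17.0 kb. Of the shared brain regions, 214 spanned 2 testis regions and 55 spanned 3 or more. The most, 6, lay over 1 brain super-enhancer on chr19:36682401-36903199 (Zv9), which was 221 kb long, joined 27 loci, and met testis regions of 2.80 to 30.2 kb, 1 of them a super-enhancer.

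A small set had the same borders in both tissues. Start and end were identical in 173 pairs (3.71%) and each lay within 200 bp, the step of the positions, in 435 (9.32%). Of the 173 pairs, 171 were typical in both tissues, 163 were 1 locus in both, and their median length was 1.6 kb. The longest pair typical in both was on chr3:39939401-39954599 (15.2 kb), which joined 3 loci in brain and 2 in testis. It was followed by chr11:5027401-5040799 (13.4 kb), chr14:18736601-18748199 (11.6 kb), chr1:54628401-54636799 and chr5:39848001-39856399 (8.40 kb each). All 5 of these places were also typical enhancers in the heart and intestine of 1-year-old fish and in the heart at 10 months. Of all 3881 shared brain typical enhancers, 82.0%, 78.9% and 79.7% overlapped a region of either class in these lists.

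The pairs of super-enhancers with the most base pairs in common had from 41.6 to 54.0 kb in common. On chromosome 1 a brain super-enhancer from 46036601 to 46090599, a single unjoined locus of 54.0 kb, lay wholly inside a testis super-enhancer of 6 loci from 46031201 to 46102999 (71.8 kb). The brain locus was listed unjoined, although a brain typical enhancer lay next to it, from 28.4 to 31.8 kb from its centre. The numbers of loci of this pair are therefore not comparable. On chromosome 15 the brain region from 23063201 to 23115999 (5 loci) and the testis region from 23060801 to 23112799 (6 loci) covered each other by 93.9% and 95.4%. On chromosome 25 the brain region from 35523001 to 35737199 was 214 kb long and joined 32 loci, and the testis region from 35688801 to 35748799 (60.0 kb) met it at its end, over 22.6% of its length.

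The other two pairs lay on chromosomes 5 and 15. On chromosome 5 the testis region from 14932801 to 14979199 lay over the end of the brain region from 14884201 to 14977799, of which it covered 48.1%. On chromosome 15 the brain region from 27709401 to 27750999 (41.6 kb, 6 loci) lay wholly inside the testis region from 27703401 to 27757399 (54.0 kb, 4 loci). Within 150 kb of its centre the testis had 4 super-enhancers and the brain 1. All 5 places were super-enhancers in the 1-year intestine, and 4 of them in both heart lists. The place on chromosome 5 was a typical enhancer in the hearts. Of all 443 shared brain super-enhancers, 32.1% were super-enhancers in the 1-year intestine, 33.6% in the 1-year heart and 27.3% in the 10-month heart.

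**Figure D4:**
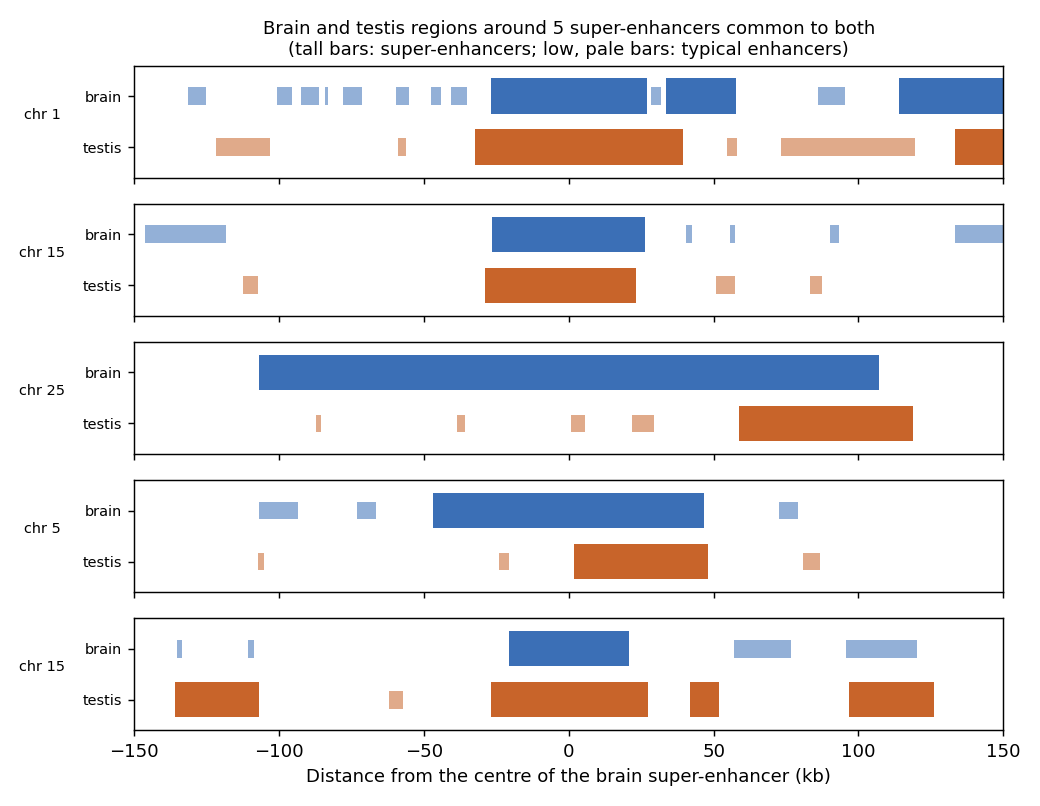
Regions of brain (upper row) and testis (lower row) within 150 kb of the centre of the 5 brain super-enhancers with the most base pairs in a testis super-enhancer, drawn to scale in kb from that centre (x axis), 1 panel each. Tall bars are super-enhancers and low pale bars typical enhancers, and the panel of chromosome 25 shows 1 brain region of 214 kb over 5 separate testis regions.

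Among brain super-enhancers with a typical counterpart in testis, the 5 with the most common base pairs were 63.8 to 123 kb long. In all 5 the testis region of 29.2 to 44.0 kb lay wholly inside, and the choice by common base pairs favours this. The nested share of the whole class is not given here, and over all matched pairs of any class it was 54.0%. The 5 were on chr22:11259601-11323399, chr13:5129201-5252199, chr15:28738801-28827599, chr23:35967201-36071999 and chr7:54256001-54366199. The first was covered to 69.0% and the last to 26.5%.

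In the 333 pairs of a testis super-enhancer and a brain typical enhancer the median lengths were 20.2 kb in testis and 9.0 kb in brain. The 5 with the most common base pairs, a choice that favours long partners, had the longer region in brain in 4 cases. The first, chr1:47535201-47601799 (66.6 kb, 5 loci), met a brain typical enhancer of 46.6 kb. The next, chr21:23816601-23865999 (49.4 kb, 3 loci), met a brain typical enhancer from 23825801 to 23927199 that was 101.4 kb long and joined 10 loci. A further 3 lay on chr18:44191601-44229999, chr4:17173401-17215799 and chr7:40211801-40255999.

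Private brain super-enhancers included the longest regions of either list. The 5 with the highest signal were chr12:25849601-26145399 (296 kb, 30 loci, signal 174255), chr22:19986401-20330799 (344 kb, 54 loci, signal 141996), and chr6:36897201-37145799 (249 kb, 38 loci, signal 112665). The remaining 2 were chr6:29605201-29796799 (192 kb, 25 loci) and chr18:7112601-7298599 (186 kb, 28 loci). The region on chromosome 12 had no enhancer in the hearts or intestine, and each of the other 4 was a typical enhancer in the intestine. None of the 5 was a super-enhancer in the heart and intestine lists. Of all 221 private brain super-enhancers, 14.0% were super-enhancers in the 1-year heart, 12.2% in the intestine and 9.50% in the 10-month heart. In the intestine 60.2% of them overlapped a region of either class.

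The 5 private testis super-enhancers with the highest signal were 28.8 to 49.6 kb long. They were chr7:40784401-40833999 (49.6 kb, 5 loci, signal 18352), chr5:31964801-32009599 (44.8 kb, 4 loci), chr12:218001-255799 (37.8 kb, 4 loci), chr18:18882201-18925599 (43.4 kb, 5 loci) and chr25:36191401-36220199 (28.8 kb, 1 unjoined locus). In the 1-year heart 4 of the 5 places were typical enhancers, and in the intestine 4 were. Of all 199 private testis super-enhancers, 54.3% overlapped a region of the 1-year heart list and 57.3% one of the intestine list. The place on chromosome 5 was a super-enhancer in the heart at 10 months.

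Among private typical enhancers of brain the 5 longest measured 93.8 to 130 kb. First came chr6:35178201-35307999, with 21 loci and no enhancer in the heart and intestine lists. The place on chr25:25639201-25738799 had none in these lists either. Those on chr21:10519401-10622799 and chr8:46022001-46122399 were typical enhancers in the 1-year heart, and that on chr6:53606401-53700199 in the 10-month heart. Of all 116 private brain typical enhancers of 50 kb and over, 68.1% overlapped a region of the 1-year heart list and 57.8% one of the intestine list. The 5 longest of testis measured 37.0 to 48.8 kb, and first came chr7:34933001-34981799, with 5 loci. That place was a typical enhancer in the 1-year heart and had none in the intestine or the 10-month heart. The next of testis, chr15:24294601-24338399 (43.8 kb), had a super-enhancer in both hearts and the intestine. Of all 5198 private testis typical enhancers, 7.23% were super-enhancers in the 1-year heart, 7.37% in the intestine and 4.08% in the 10-month heart.

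Private testis super-enhancers lay close to brain regions more often than the reverse. Of the 199, 46 (23.1%) touched a brain region by less than the overlap required. Of the 221 private brain super-enhancers, 13 (5.88%) touched a testis region. The median distance to the nearest region of the other tissue was 14.2 kb for testis and 51.8 kb for brain super-enhancers, and 29.8 kb and 47.8 kb for private typical enhancers. Brain regions covered 12.6% and testis regions 4.46% of the chromosomes, and the part of this in the distances was not tested.

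Signal per base pair was compared within each list only. Among typical enhancers of 1 locus the shared ones were more densely marked. In brain the median was 0.623 signal units per bp in 2169 shared and 0.524 in 5635 private regions, a ratio of 1.19. In testis it was 0.489 in 3344 shared and 0.416 in 4520 private regions, a ratio of 1.17. Most of these regions do not have their own signal. Over those that do, the ratios were 1.11 in brain (642 shared, 1798 private) and 1.14 in testis (726 shared, 1079 private). Over all 1-locus typical enhancers, with or without their own signal, the quartile ranges overlapped. They were 0.508 to 0.792 against 0.454 to 0.621 in brain and 0.410 to 0.599 against 0.378 to 0.495 in testis. With own signal only they also overlapped, 0.513 to 0.746 against 0.473 to 0.636 in brain and 0.414 to 0.577 against 0.379 to 0.514 in testis. In brain the order held below 10 kb and turned at 10 to 20 kb. There 51 shared regions had 0.535 and 71 private ones 0.580 signal units per bp, with or without their own signal. With own signal only, 48 shared regions had 0.550 and 68 private ones 0.587.

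Among super-enhancers with their own signal the density followed sharing in brain and not in testis. Brain super-enhancers that met a testis super-enhancer had a median of 0.553 signal units per bp (n = 76), those that met typical enhancers 0.477 (n = 354) and private ones 0.455 (n = 201). The quartile ranges of the first and the last, 0.494 to 0.650 and 0.403 to 0.522, overlapped. Over all brain super-enhancers these groups had medians of 6, 10 and 9 loci. A joined region includes the stretches between its loci, and their part in the density was not tested. The testis medians were 0.396 (n = 63), 0.393 (n = 230) and 0.40 (n = 129). The total signal of private super-enhancers was lower at the median in both tissues, at percentile 38.8 of these brain and 45.3 of these testis super-enhancers. This signal was read as a total over the region, and private super-enhancers were shorter. Over all super-enhancers the medians were 60.0 kb for private and 71.4 kb for shared ones in brain, and 16.2 and 18.7 kb in testis. Of the 50 super-enhancers of highest signal, 8 were private in brain and 4 in testis. Among all with their own signal, 201 of 631 were private in brain and 129 of 422 in testis.

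Regions shared by brain and testis were found in other organs more often than private ones. Of all brain regions 54.7% overlapped a region of the 1-year heart list and 49.7% one of the 1-year intestine list, and of all testis regions 56.3% and 54.1%. Among brain regions shared with testis the heart held 82.4% (81.3 to 83.6) and the intestine 79.5% (78.3 to 80.7). Among private brain regions these were 41.2% (40.2 to 42.2) and 35.2% (34.3 to 36.3). Testis regions shared with brain were in the heart in 78.2% and the intestine in 75%, and private ones in 37.5% and 36.2%. The heart list of 10 months, which shares age, fragment size and preparation with both tissues and was made from 1 replicate, gave 80.5% and 32.7% for brain and 74.5% and 31.7% for testis. That list was chosen after its values were seen.

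Within classes of length, shared typical enhancers were also in the 1-year heart more often than private ones. The part of length in the difference was not tested. Brain typical enhancers under 2 kb were in the 1-year heart in 85.2% of shared and 33.3% of private cases, and those of 20 to 50 kb in 84.4% and 57.8%. Testis typical enhancers under 2 kb gave 84.7% and 34.9%, and those of 20 to 50 kb 79.4% of shared regions and 44 of 88 private ones. The gap was thus widest among the shortest regions. Of private typical enhancers, 4504 in brain (51.8%) and 2743 in testis (52.8%) were in neither 1-year list. For shared typical enhancers the counts were 504 (12.99%) and 752 (17.8%). Private super-enhancers were in neither list in 56 (25.3%) and 65 (32.7%) cases, and shared ones in 39 (8.80%) and 20 (5.24%).

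Both tissues had regions on all 25 chromosomes, and in every chromosome the brain had more. Brain regions per Mb ran from 6.75 on chromosome 4 to 10.95 on chromosome 21, with a median of 9.87, and testis regions from 5.15 on chromosome 4 to 9.23 on chromosome 19, with a median of 7.58. Across chromosomes the densities had a Pearson r of 0.58 and a Spearman rho of 0.45 (n = 25), or 0.39 and 0.38 without chromosome 4. Both tissues are read on the same chromosomes, whose gene content and mappability they share, so these are descriptions.

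Chromosome 9 was the most one-sided. It had 557 brain and 311 testis regions, 0.558 testis regions per brain region, against 0.764 at the median chromosome and 0.877 on chromosome 19. Brain regions covered 12.6% of chromosome 9, near the median of 12.47%, while testis regions covered 2.61%, the lowest of all. Its brain regions were also the least shared, 24.6%, whereas the shared percentage of its testis regions, 45.7%, was near the median of 46.0%. Chromosome 14 came next, with 532 brain and 315 testis regions. At the other end chromosome 1 had the lowest ratio of brain to testis base pairs, 2.16, against 4.83 on chromosome 9.

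The number of super-enhancers per chromosome ran from 19 to 51 in brain and from 11 to 48 in testis. Chromosome 7, the longest at 77.3 Mb, held the most in both, 51 in brain and 48 in testis. Per Mb the highest were chromosome 23 in brain, with 0.690, and chromosome 19 in testis, with 0.756. Chromosome 7 had 0.660 and 0.621 per Mb. Chromosome 8 held 28 in brain and 11 in testis, and chromosome 9 held 30 and 12. Chromosome 2 held 19 and 28, chromosome 1 held 23 and 30, and chromosome 19 held 30 and 38. The densities of super-enhancers had a Pearson r of 0.19 and a Spearman rho of 0.13 across the 25 chromosomes. The counts per chromosome are small, and the part of this in the correlation was not tested. Whether the spread differed between tissues was not tested either.

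**Figure D5:**
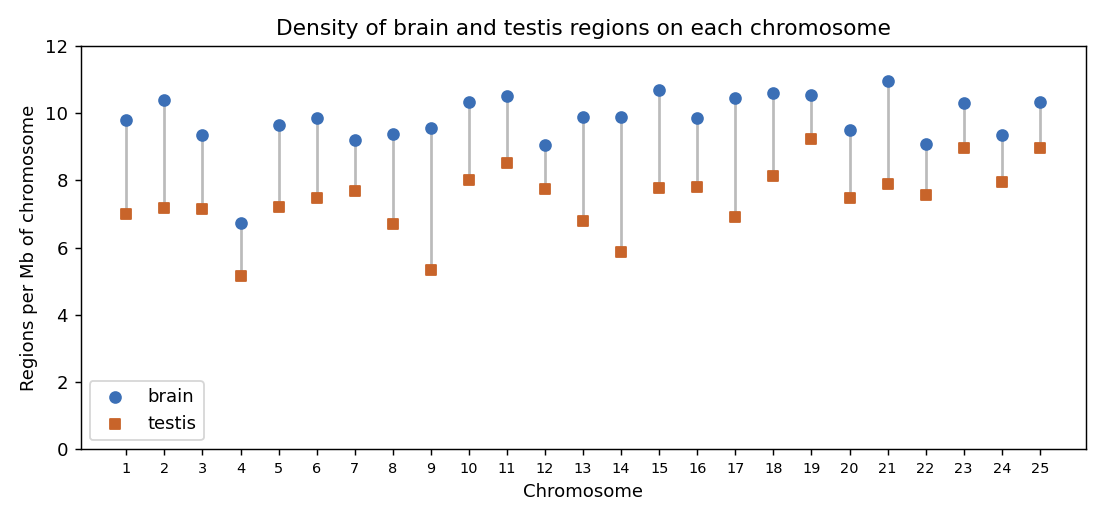
Regions per Mb of chromosome (y axis) for brain (circles) and testis (squares) on each of the 25 chromosomes (x axis), with a grey line joining the tissues. Chromosome 4 is lowest in both, at 6.75 and 5.15, and chromosome 9 has a long line, with 9.57 in brain and 5.34 in testis.

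The low density of chromosome 4 came from its far part in both tissues. The first 30 Mb held 359 of 419 brain regions (85.7%) and 278 of 320 testis regions (86.9%), or 12.0 and 9.27 per Mb. The rest held 1.87 and 1.31 per Mb. Between 30 and 50 Mb the brain had 4 regions and the testis 8, with no super-enhancer of either tissue. Past 60 Mb the testis had 2 super-enhancers and the brain none. The long arm of this chromosome is known in zebrafish as heterochromatic and rich in repeats.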

How the data were processed

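H3K27ac ChIP-seq and input libraries of brain and testis were sequenced by the authors, and the deposited values used here are positions and a signal per region, with 1 list per tissue and class. Per the submitters' processing notes the build was Zv9, and the tools, with no roles named, were SICER 1.1, bedtools 2.24.0, SAMtools 0.1.8, Bowtie2 2.1.0 and CASAVA. Not given in the sources used here are the program that joined loci, the threshold for super-enhancers, the use of input and the treatment of replicates. No read counts were used, so depth is unknown. The deposited signal is labelled density. Where it divides evenly by the length it was read as a total over the region. The other regions, 58.5% in brain and 70.8% in testis, do not have their own signal. No scaling is stated, so the signal was compared only within a list.

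Regions were matched by overlap of at least 50% of the shorter region. Length was end minus start, chromosome length the highest end in any list, and printed starts count from 1. A region had its own signal when 10000 times its signal was a whole multiple of its length. Shares carry exact Clopper-Pearson 95% intervals, which cover counting over regions only. With 1 list per tissue, no test between tissues was possible. Alternatives were 2 other overlap rules, own signal only, the super-enhancers of highest signal, the longest regions as super-enhancers and leaving out chromosome 4. Overlap code was tested on simulated lists. Calculations used Python 3.11.15, numpy 2.4.6, pandas 2.3.3, scipy 1.17.1 and matplotlib 3.10.9. The members and rules were chosen with earlier results of these data known. Named regions are, for each class of sharing, those with the most common base pairs, the highest own signal or the greatest length. Genes were not assigned, because no annotation of Zv9 was used here.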

Additional observations from a re-analysis of the deposited data

How the results depend on the processing

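Of 88 values under alternatives, 35 stayed within the interval of the reported value (for base pairs, 1 SD over chromosomes) and 53 moved, and under the other overlap rules, own signal only and the 10-month heart list, where they were compared, shared regions were found in the other organs more often than private ones. All 14 values without chromosome 4 stayed. Shares below are given as brain then testis. With any overlap of 1 bp, typical enhancers were shared in 33.1% and 47.8%, and 26.3% of testis super-enhancers were private. Shared regions were then in the heart in 85.3% and 81.0% and in the intestine in 82.7% and 78.5%, and private ones in 42.6% (brain, heart), 37.0% (brain, intestine) and 37.7% (testis, intestine). With 50% of both regions, super-enhancers met super-enhancers in 2.86% and 3.27%, were private in 95.5% and 79.3%, and typical enhancers were shared in 12.1% and 15.2%. Shared regions were then in the heart in 43.9% and 41.9% and in the intestine in 36.6% and 34.1%, and private ones in 14.5% and 11.8% and in 12.498% and 10.2%.

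With own signal only, which leaves out most typical enhancers as partners, super-enhancers were private in 71.3% and 55.2%, typical enhancers were shared in 11.2% and 22.7%, and base pairs lay in the other tissue in 6.14% and 26.8%. Shared regions were in the heart in 85.9% and 79.8% and in the intestine in 83.3% (brain), and private ones in 54.6% and 53.7% and in 49.5% and 51.8%. Typical enhancers then had medians of 8.20 and 4.2 kb, and testis super-enhancers 20.8 kb. With super-enhancers of the upper 50% by signal, 5.72% and 6.87% met a super-enhancer. The other super-enhancers were then left out of both lists, also as partners, so fewer were left to be met. Against the full lists, 8 of the 50 brain super-enhancers of highest signal and 11 of the 50 of testis met a super-enhancer. In the upper 50%, 26.8% of brain super-enhancers were private, the medians were 97.2 and 26.8 kb, and brain ones joined 13 loci. With the longest regions as super-enhancers the medians were 77.4 and 25.6 kb, with 10.5 loci in brain. The heart at 10 months held 80.5% and 74.5% of shared and 32.7% and 31.7% of private regions. The cause of these moves was not tested beyond the change each alternative makes. No paired analysis was possible because the lists hold no values per replicate, and for the same reason no replicate could be left out. Depth is unknown.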

Other observations

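Stretches without a region of one tissue could hold many of the other. Between neighbouring testis regions, the stretch with the most brain base pairs was on chr9:44141400-45313600, where 14 brain regions, 4 of them super-enhancers, covered 469 kb of 1172 kb. The next were chr22:19197200-20500400, with 7 brain regions over 389 kb, and chr12:25631800-26408800, with 8 brain regions over 363 kb. Between neighbouring brain regions, the testis covered at most 112 kb, on chr12:24198200-24793200, by 7 regions with 1 super-enhancer. It was followed by 97.2 kb on chr7:28380000-28827800 and 92.6 kb on chr18:5760400-6228000.

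In windows of 1 Mb both tissues had regions in 1284 of 1344, brain alone in 28 and testis alone in 15. The testis covered more base pairs than the brain in 214 windows (15.9%), although its list was smaller. The widest excess of testis was on chr19:41000001-42000000, with 181 kb in 17 testis regions and 56.0 kb in 11 brain regions. It was followed by chr12:37000001-38000000, with 175 and 56.4 kb. The widest excess of brain was on chr4:7000001-8000000, with 604 kb in brain and 85.0 kb in testis. These windows were chosen after their values were seen.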
